A study of Mus musculus with 6 samples.

Results

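The keratins measured in inguinal white adipose tissue of Atf7 knockout mice were taken as all genes whose symbol is Krt followed by a number, without the keratin-associated proteins. This gave 52 genes of the 19937 genes with a named probe set, and each was represented by 1 probe set. They fall into 25 genes on chromosome 15, the chromosome of Atf7, and 27 type I keratins on chromosome 11. The 25 are 24 type II keratins and the type I keratin Krt18. In gene order Krt18 lies nearest to Atf7 among them, with 22 measured genes between, and Krt80 lies farthest, with 48. Gene order came from a RefSeq gene table, and the labels and headers name no build for the array annotation.

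RNA of the inguinal depot, a subcutaneous fat pad, was profiled on 1 array per mouse in 3 wild-type mice (WT) and 3 mice that lack Atf7 (KO). All were males of strain C57BL/6 aged 5 weeks, bred as littermates from Atf7 heterozygotes and kept free of specific pathogens. Atf7 is a leucine zipper transcription factor, and nothing in the labels restricts the deletion to a cell type. The labels do not say which stretch of the gene was removed.

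Keratins are the intermediate filament proteins of epithelial cells. A filament needs a type I partner and a type II partner in equal amount, so epithelia express them in pairs: KRT8 with KRT18 or KRT19 in simple and glandular epithelia, KRT5 with KRT14 in basal cells, and KRT1 or KRT2 with KRT10 in the upper epidermis. In mammals the type II genes and Krt18 form one cluster and the other type I genes another, so the partners of most pairs sit on different chromosomes. Fat cells are not epithelial and use vimentin filaments instead. The inguinal pad, however, lies where the mammary gland grows, under skin and around a lymph node. All mice here were males, and whether their pads held gland tissue was not examined.

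Because Krt8 and Krt18 are neighbours in the Atf7-linked cluster that were high on the same array, and Krt14 is a type I gene of the other cluster that was high there too, the RefSeq windows from 250 bases before to 50 after their start sites are shown (GRCm38.p6, 5′ to 3′ on the gene's strand). Krt8 is chr15:102004293-102004592 on the minus strand, Krt18 is chr15:102027966-102028265 on the plus strand and Krt14 is chr11:100205981-100206280 on the minus strand. Capitals mark TATAAA on either strand.
Krt8: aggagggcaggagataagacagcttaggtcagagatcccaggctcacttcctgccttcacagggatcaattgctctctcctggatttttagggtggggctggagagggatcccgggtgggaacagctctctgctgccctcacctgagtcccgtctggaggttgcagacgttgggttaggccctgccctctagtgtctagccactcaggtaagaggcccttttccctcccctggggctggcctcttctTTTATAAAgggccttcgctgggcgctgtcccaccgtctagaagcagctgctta
Krt18: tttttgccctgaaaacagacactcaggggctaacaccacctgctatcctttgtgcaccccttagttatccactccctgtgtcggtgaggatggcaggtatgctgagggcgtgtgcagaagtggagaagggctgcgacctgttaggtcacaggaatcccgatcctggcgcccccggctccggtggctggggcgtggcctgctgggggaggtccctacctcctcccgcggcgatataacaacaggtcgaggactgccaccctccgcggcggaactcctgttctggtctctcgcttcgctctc
Krt14: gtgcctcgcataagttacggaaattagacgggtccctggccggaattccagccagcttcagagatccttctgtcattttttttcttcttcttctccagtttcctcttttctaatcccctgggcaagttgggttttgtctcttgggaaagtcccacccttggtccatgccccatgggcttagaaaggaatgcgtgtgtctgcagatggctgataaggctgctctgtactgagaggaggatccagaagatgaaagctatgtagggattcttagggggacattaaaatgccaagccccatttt
The windows were searched on both strands for the cAMP response element TGACGTCA, a site to which ATF7 and its relatives bind, for the AP-1 site TGACTCA, whose other strand reads TGAGTCA, and for TATAAA. The first 2 motifs share their opening letters, but neither contains the other. Windows were matched for 36 of the 52 keratins, 16 linked and 20 unlinked. TGACGTCA was in 0 of the 16 linked and 0 of the 21 unlinked windows, where 1.79% of 32851 windows hold it. TGACTCA was in 0 linked windows and in 1 unlinked one, of Krt13, at bases 68 and 217, against 5.2% of all windows. TATAAA was in 6 linked and 13 unlinked windows, against 13.6% of all. In Krt8 it was read at bases 248 and 250 of the window on opposite strands. These matches begin at -3 and -1 from the annotated start site, so the marked stretch runs over that site. These are matches of letters and say nothing of binding.

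Atf7 probe set 10433032 was 8.95, 9.20 and 9.07 in WT replicates 1 to 3 and 6.22, 6.53 and 6.49 in KO, a difference of -2.66 on the log2 scale (SE 0.12, adjusted p 0.00658 by limma over 34760 probe sets). Leaving out WT replicate 1 gave an adjusted p of 0.0745, and leaving out WT replicate 3 gave 0.147. Probe set 10433034 of the same gene differed by -0.17 (adjusted p 0.730). Adipocyte markers were bright on all arrays, with Adipoq between 12.24 and 12.68. KO replicate 3 stood apart from the other arrays, with correlations across probe sets of 0.969 to 0.981 and a mean level of the B cell list of 5.94, where the other arrays were at 9.28 to 10.09. WT replicate 2 stood apart in the keratins, as described next, and results are given with and without it. With 1 probe set per gene, limma called 0 of 19937 genes at an adjusted p under 0.05 (0.0% higher, 0.0% lower), and at an unadjusted p under 0.05 it had 995 higher (4.99%) and 494 lower (2.48%) in KO. Atf7 is not among the gene calls because the gene is represented there by the probe set with the higher mean, 10433034.

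No keratin passed the test of KO against WT, and the keratins of glandular and basal epithelium were high on 1 WT array on both chromosomes. Krt8, Krt18, Krt7 and Krt5 on chromosome 15 and Krt19, Krt14 and Krt17 on chromosome 11 all had their highest value in WT replicate 2, between 0.84 and 3.70 log2 units above the mean of the other WT arrays. With that array left out, the differences between KO and WT of these 7 genes lay between -0.18 and 0.24. The other 45 keratins differed by -0.35 to 0.31 with all 6 arrays.

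Among the keratins of simple epithelia, Krt8, the type II keratin of glandular cells, was 6.64, 9.24 and 6.35 in WT replicates 1 to 3 and 6.22, 6.31 and 6.52 in KO replicates 1 to 3. Its partner Krt18 was 5.82, 8.22 and 5.76 in WT and 5.81, 5.96 and 5.84 in KO. In both genes WT replicate 2 was far above the other 5 arrays, and the remaining WT arrays lay close to the KO arrays. Krt8 was 7.41 ± 1.59 in WT and 6.35 ± 0.16 in KO (SD, n = 3), a log2 difference of -1.06 (95% interval -2.70 to 0.58, adjusted p 0.654 by limma). For Krt18 it was -0.73 (95% interval -2.18 to 0.72, adjusted p 0.722). With WT replicate 2 left out the difference of Krt8 was -0.14 (-0.50 to 0.21) and that of Krt18 turned to 0.08 (-0.17 to 0.33).

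Krt19, a type I keratin of ducts on chromosome 11, was also highest in WT replicate 2. It was 5.85, 9.52 and 5.78 in WT and 5.90, 5.72 and 6.55 in KO, so KO replicate 3 came next, where for Krt8 it was WT replicate 1 and for Krt18 KO replicate 2. The 5 arrays other than WT replicate 2 spanned 0.83 in Krt19, 0.42 in Krt8 and 0.20 in Krt18. The difference was -0.99 (95% interval -3.22 to 1.24, adjusted p 0.754) with all arrays and 0.24 (-0.36 to 0.85) without WT replicate 2. Ranked by the level in WT replicate 2 minus the mean of the other 5 arrays, Krt19 was number 3, Krt8 number 12 and Krt18 number 20 of 19937 genes. Krt7, a linked type II keratin of ducts and glands, was 6.18, 7.29 and 6.06 in WT and 5.89, 6.03 and 6.11 in KO, a difference of -0.50 that was -0.10 without WT replicate 2. Krt20, a keratin of gut and urinary epithelium and the fifth of this class measured, went the other way on that array, which was the lowest of the 6 at 4.47. The plot of the epithelial keratins by array shows these values beside those of the basal keratins.

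**Figure D1:**
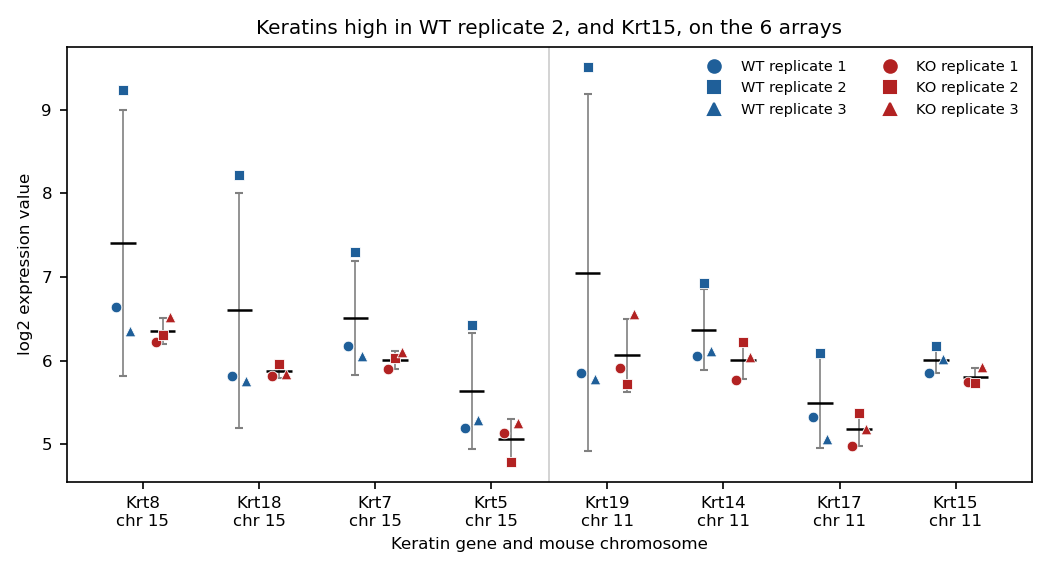
Log2 expression values (vertical axis) of the 7 keratins at least 0.5 higher in WT replicate 2 than the mean of the other WT arrays, and Krt15 (horizontal axis), 4 on chromosome 15 with Atf7 and 4 on chromosome 11; each symbol is 1 array, the black line the group mean and the grey bar 1 SD (n = 3). WT replicate 2 (blue square) is the highest array for these 8 genes, at 9.24 for Krt8 and 9.52 for Krt19, but they were chosen after their values were seen, and Krt20, not drawn, was lowest there.

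The basal keratins gave a smaller version of this pattern. Krt5, the type II keratin of basal and myoepithelial cells, was 5.19, 6.43 and 5.28 in WT and 5.14, 4.79 and 5.26 in KO. Krt14, its type I partner on chromosome 11, was 6.06, 6.93 and 6.12 in WT and 5.77, 6.22 and 6.04 in KO. WT replicate 2 was again the highest, by 1.19 over the other WT arrays for Krt5 and by 0.84 for Krt14. Their differences were -0.58 (95% interval -1.34 to 0.19) and -0.36 (-0.93 to 0.22), with adjusted p-values of 0.626 and 0.667, and without that array -0.18 and -0.08. Krt15, a type I keratin of basal cells and hair follicle stem cells, was 5.85, 6.17 and 6.02 in WT and 5.74, 5.74 and 5.92 in KO. Its excess in WT replicate 2 was 0.24, and its difference of -0.21 had an adjusted p of 0.624.

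Among the keratins of wound response and skin appendages, Krt17 was 5.32, 6.09 and 5.06 in WT and 4.98, 5.37 and 5.18 in KO, with a difference of -0.32 that was -0.01 without WT replicate 2. Krt16, induced with it in activated epidermis, was 4.78, 4.94 and 4.91 in WT and 4.41, 4.53 and 4.73 in KO. Every KO array was below every WT array for Krt16, with a difference of -0.32 (SE 0.11, unadjusted p 0.0212, adjusted p 0.622 by limma). Its probe set was dim, at percentile 13.4 of all gene means. Krt6a and Krt6b, close copies of each other, differed by -0.03 and 0.0024. Signal from close copies such as Krt6a and Krt6b, Krt33a and Krt33b, or Krt14, Krt16 and Krt17 may be shared between their probe sets, and probe sequences were not used here.

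Keratins of the upper epidermis gave no sign of WT replicate 2. Krt1 was 4.54, 4.54 and 4.32 in WT and 4.27, 4.28 and 4.63 in KO. Krt10, its type I partner, was 5.82, 5.92 and 6.01 in WT and 5.85, 5.64 and 6.09 in KO. Groups overlapped for both, and also for Krt2, which was 4.56, 4.71 and 4.98 in WT and 4.56, 4.87 and 4.63 in KO. The differences of Krt1, Krt10 and Krt2 were -0.07, -0.06 and -0.06, with adjusted p-values of 0.874, 0.911 and 0.905. Over the 5 keratins of upper epidermis and sole, the level of WT replicate 2 differed from the mean of the other WT arrays by -0.12 to 0.11. The 5 keratins of mucosa and cornea (Krt4, Krt12, Krt13, Krt76 and Krt78) spanned -0.17 to 0.09 in that measure, and had KO against WT differences of -0.16 to 0.03.

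Hair keratins were dim and varied in both directions. In the 8 keratins of the inner root sheath, the layer that moulds the growing hair, differences ran from -0.20 to 0.22, and in the 13 of the hair shaft from -0.35 to 0.31. Krt86, a linked type II hair shaft keratin, was 4.09, 4.12 and 4.20 in WT and 3.52, 3.81 and 4.04 in KO. All KO arrays were below all WT arrays, with a difference of -0.35 (SE 0.14, unadjusted p 0.0418, adjusted p 0.622), on a dim probe set. Krt33b, a type I hair shaft keratin, was 7.68, 7.35 and 7.51 in WT and 7.57, 7.68 and 7.63 in KO. It was the 1 keratin above the median of all gene values (6.88) on at least 3 arrays, and it differed by 0.11 with overlapping groups. Krt87, a linked hair keratin, was 6.61, 6.37 and 6.64 in WT and 6.55, 6.67 and 6.67 in KO, a difference of 0.09.

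Krt80, at the far end of the linked cluster, had the smallest unadjusted p of the keratins. This type II keratin of desmosome-associated filaments was 6.67, 6.51 and 6.66 in WT and 6.99, 6.82 and 6.94 in KO. All KO arrays were above all WT arrays, by 0.31 on the log2 scale (SE 0.10, 1.24-fold, unadjusted p 0.0145), and limma's adjusted p was 0.622. The difference without WT replicate 2 was 0.25 (95% interval -0.00068 to 0.50). Krt79, a linked keratin of the hair canal and sebaceous duct, was 6.27, 6.36 and 6.25 in WT and 6.30, 6.49 and 6.68 in KO, a difference of 0.20 with an adjusted p of 0.630 and overlapping groups.

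Counted together, 1 of 52 keratins was higher (Krt80) and 2 were lower (Krt16 and Krt86) at an unadjusted p under 0.05, where 4.99% and 2.48% of all genes were. Leaving out WT replicate 2 gave 0 higher and 1 lower (Krt90), against 4.06% and 2.03% of all genes. Without WT replicate 3, and likewise without KO replicate 1, 0 were lower. Every KO array was above every WT array for 2 keratins, Krt80 and Krt73, and below for 3, Krt16, Krt84 and Krt86, where 7.96% and 5.97% of all genes separate this way. Krt73, Krt84, Krt90, Krt6a, Krt6b, Krt20, Krt78 and Krt222 are named here after their values were seen. Of the 52 probe sets, 51 were dimmer than the median gene and 26 had a mean below 5.43, under which the dimmest 25% of genes lie.

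**Figure D2:**
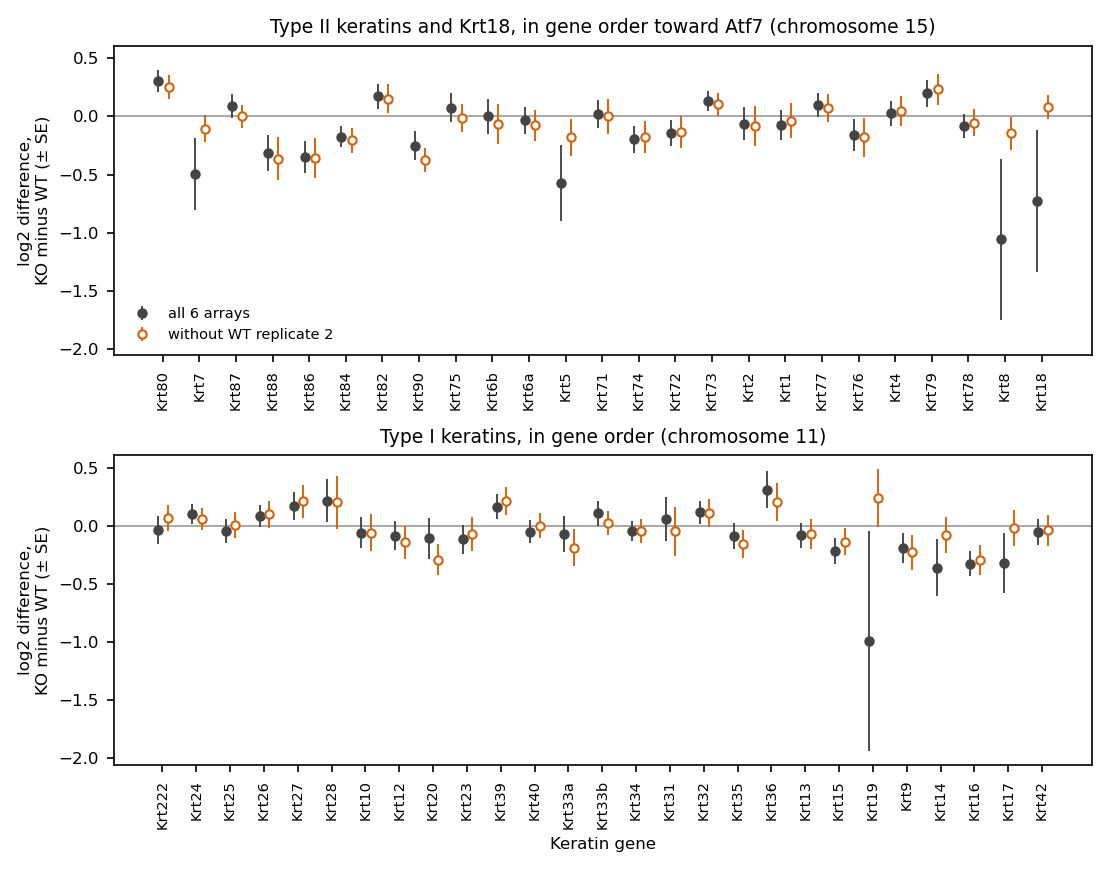
Log2 difference of KO minus WT (vertical axis, error bars 1 SE from limma) for the 25 keratins on chromosome 15 (top, in gene order toward Atf7) and the 27 on chromosome 11 (bottom), with all 6 arrays (filled) and without WT replicate 2 (open). The lowest values with all arrays, Krt8 at -1.06, Krt19 at -0.99 and Krt18 at -0.73, move to between -0.14 and 0.24 without that array.

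The median difference was -0.07 over the 25 linked keratins, with 15 below zero, and -0.05 over the 27 unlinked ones, with 18 below zero, beside 0.01 over all genes, of which 47.0% were below zero. Linked minus unlinked, the medians differed by -0.025, and the spread of that measure between arrays of a group was 0.041 (SD). The difference was -0.052 without WT replicate 1, -0.051 without KO replicate 2 and, with its sign turned, 0.044 without KO replicate 3. Each of these is larger in size than that spread. Only without KO replicate 3 did the difference move from its value with all arrays by more than the spread. The 722 other measured genes of chromosome 15 had a median of -0.0017, and the 24 that are not keratins between Krt80 and Atf7 one of -0.0032. Along the cluster, Krt80 was at 0.31 and the next measured keratin, Krt7, at -0.50. At the Atf7 end Krt78 was at -0.08 beside Krt8 at -1.06. Without WT replicate 2 these 2 pairs of neighbours were at 0.25 and -0.10, and at -0.05 and -0.14. In WT replicate 2, 4 of 25 linked and 3 of 27 unlinked keratins were at least 0.5 above the mean of the other WT arrays, as were 2.12% of all genes. This limit was chosen after the values were seen. Krt14, at 0.84, was the lowest above it, and Krt222, at 0.31, the highest below.

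Markers of glandular epithelium other than keratins were high on the same array. Of 26 measured genes of the luminal gland list, 21 had their highest value in WT replicate 2, where 11.7% of all genes did. On that array 13 of the 26 were at least 0.5 above the mean of the other WT arrays, as were 2.12% of all genes. Epcam, an adhesion molecule of epithelial cells, was 7.06 in WT replicate 2 and 5.18 to 5.52 on the other arrays. Foxa1, a transcription factor of hormone-responsive luminal cells, was 7.04 there and 4.65 to 4.80 elsewhere, and Elf5, which drives the milk-producing lineage, was 6.13 and 4.70 to 4.99. Cdh1, the epithelial cadherin, was 7.43 and 5.94 to 6.21. Cldn7, a tight junction protein, was 6.64 and 5.49 to 5.67. Thus all 4 defining markers of the list (Epcam, Cdh1, Cldn7 and Elf5) had WT replicate 2 as their highest array, with no overlap.

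The mean level of the luminal list was 6.08, 6.88 and 6.19 in WT and 6.03, 6.13 and 6.03 in KO. Its median difference between KO and WT was -0.30 with all arrays and -0.05 without WT replicate 2. No gene of it passed adjustment. At an unadjusted p under 0.05, 1 of 26 was higher (Aldh1a3) and 1 lower (St14), near the shares of all genes (4.99% and 2.48%). Every KO array was above every WT array for 1 of the 26 and below for 6, where 7.96% and 5.97% of all genes separate this way. For those 6 genes WT replicates 1 and 3 were also above the KO arrays. In bulk tissue, fewer cells of a type and less RNA per cell cannot be told apart. The part of gland epithelium in the keratin differences was not tested. Leaving out WT replicate 2 also removes the array with the highest muscle level.

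**Figure D3:**
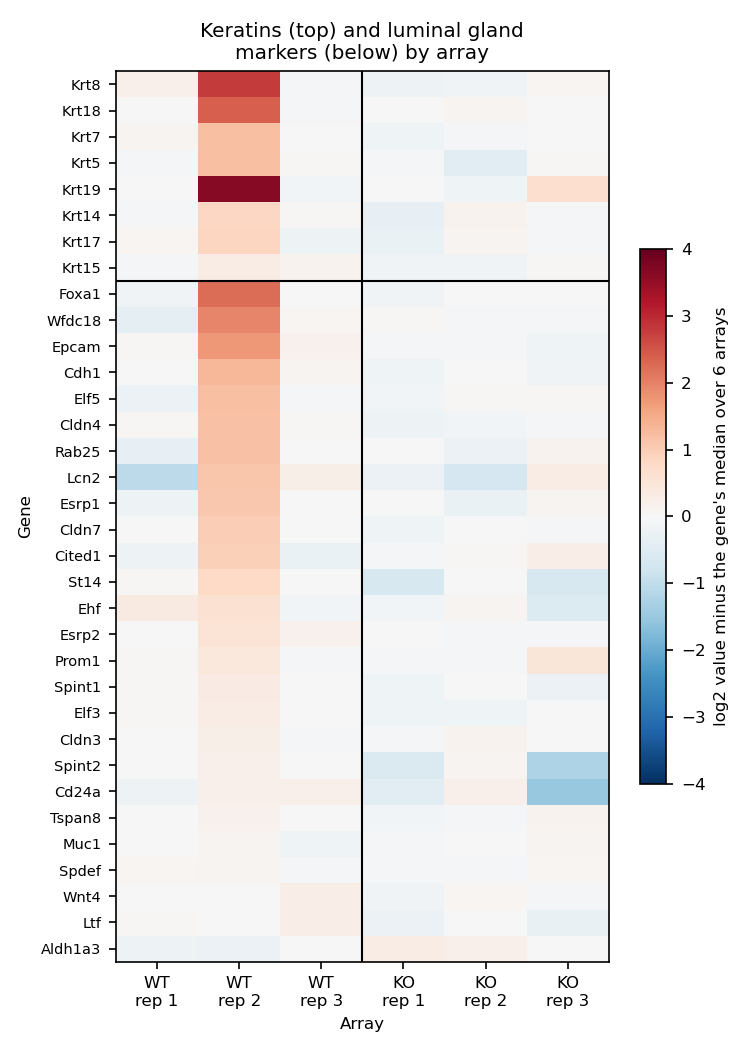
Log2 values minus each gene's median over the 6 arrays (colour) for 8 epithelial keratins (top rows) and the 26 measured luminal gland markers (lower rows, sorted by WT replicate 2), with 1 column per array. The column of WT replicate 2 is red for keratins of both chromosomes and for Foxa1, Wfdc18, Epcam and Cdh1, and Spint2 and Cd24a are lowest in KO replicate 3.

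Milk protein genes split. Csn3, kappa-casein, was 6.99 in WT replicate 2 and 4.27 to 4.61 on the other arrays. Csn2, beta-casein, was lowest there at 5.17, on a dim probe set. The means of Csn2 and Csn3 were at percentiles 24.4 and 14.7 of all gene means. Wap, whey acidic protein, was 5.87 in WT replicate 2 and between 5.77 and 6.04 elsewhere. Wfdc18, a secreted protein of the mammary gland, was 6.97 and 4.64 to 5.10. Among 13 genes of the basal gland list, 7 had WT replicate 2 as their highest array, where 11.7% of all genes did. The list's mean was 6.57 on that array, 6.26 and 6.34 on the other WT arrays and 6.04 to 6.32 in KO. Of its defining markers, Oxtr, the oxytocin receptor of myoepithelial cells, was 6.69 in WT replicate 2 but 6.86 in KO replicate 1, Trp63 was highest in KO replicate 3 at 6.69, and Col17a1 was between 6.17 and 6.24 in WT and 5.87 and 6.07 in KO.

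Skin and mesothelium are other sources of keratin in a dissected pad. Their defining markers were not high in WT replicate 2, with the exception of Mc5r in the sebaceous list. Lor and Ivl, proteins of the cornified envelope, were lowest in WT replicate 2, at 4.90 and 4.84. Both probe sets were dim, at percentiles 20.8 and 18.3 of all gene means, which limits what their low values can show. The epidermis list had a mean of 5.70 to 5.76 in WT and 5.54 to 5.68 in KO. In this list 12 of the 23 genes had a mean below 5.43, where the dimmest genes lie. Of its 23 genes, Sprr1a alone was at least 0.5 higher in WT replicate 2 than the mean of the other WT arrays, as were 2.12% of all genes. Sprr1a was 8.18 there against 6.14 to 6.61 elsewhere. Hair follicle markers averaged 5.35 to 5.46 in WT and 5.17 to 5.38 in KO. Msln and Upk3b, markers of mesothelium, stayed within 5.70 to 5.75 and 5.34 to 5.57 on all 6 arrays. The defining markers of the sebaceous list, Awat2 and Mc5r, went apart. Awat2 was lowest in WT replicate 2 at 4.74. Mc5r, a melanocortin receptor of sebaceous glands, was highest there at 8.72, with 7.67 in KO replicate 3 and 6.11 to 6.95 elsewhere.

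Muscle and lymph node genes marked other arrays as well. The skeletal muscle list had a mean of 9.62 in WT replicate 2, 8.86 in KO replicate 1, 7.94 in WT replicate 3 and 6.01 to 6.16 on the remaining arrays. Krt8 in KO replicate 1, the array second in muscle level, was 6.22, the lowest of the 6, and Krt18 and Krt19 there were 5.81 and 5.90. KO replicate 3, which had the lowest lymph node stroma level (6.83, against 8.85 to 9.60), had Krt8 at 6.52 and Krt18 at 5.84. The part of either tissue in the keratin values was not tested. Leaving out WT replicate 2 and KO replicate 3 together, a choice made after the data were seen, the linked and unlinked medians were -0.06 and -0.02.

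**Figure D4:**
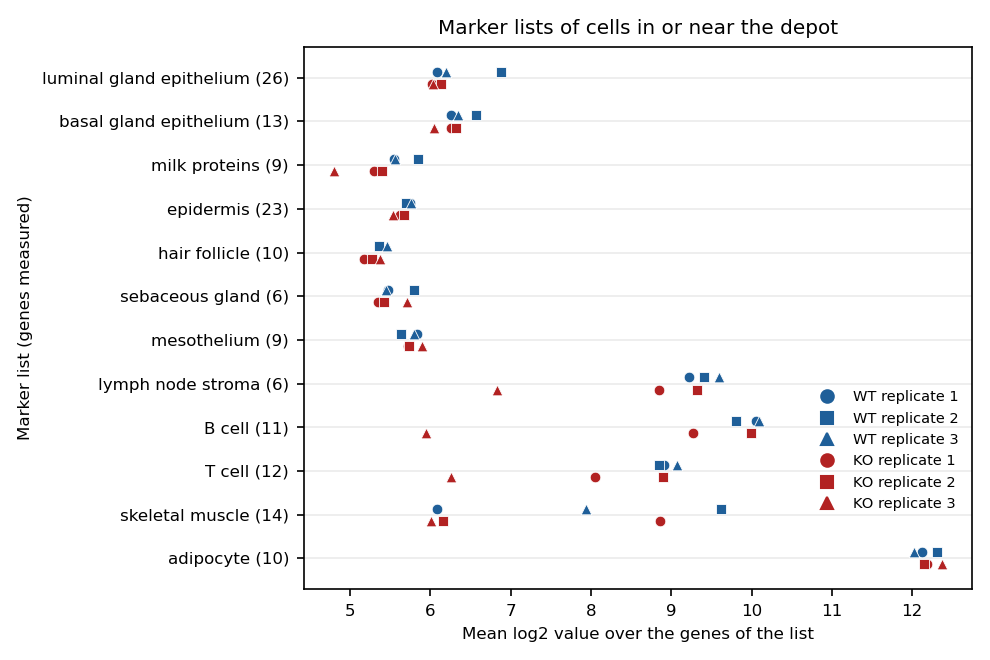
Mean log2 value over the measured genes of 12 marker lists (horizontal axis; gene numbers in brackets) on each array, WT in blue and KO in red, with a symbol per replicate. WT replicate 2 is the highest array for the luminal gland list at 6.88 and for skeletal muscle at 9.62, while KO replicate 3 is the lowest for lymph node stroma, B cells and T cells.

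The partners of keratin filaments were read from lists of desmosome and hemidesmosome genes, other intermediate filaments and epithelial transcription factors. Of 24 desmosome and hemidesmosome genes, 0 were higher and 4 lower at an unadjusted p under 0.05, against 4.99% and 2.48% of all genes, and none passed adjustment. Dsc2, a desmosomal cadherin, was 6.14, 6.20 and 6.26 in WT and 5.45, 6.05 and 5.23 in KO (difference -0.62, adjusted p 0.622). Its values were lowest in KO replicates 1 and 3, which also had the lowest T cell levels (8.05 and 6.26, against 8.85 to 9.07), and the part of that was not tested. Lad1, a protein of anchoring filaments, and Dsg2, another desmosomal cadherin, differed by -0.59 and -0.43, and Col17a1, a hemidesmosome collagen, by -0.22. Leaving out WT replicate 2, 0 of the 24 were higher and 2 lower at that threshold, against 4.06% and 2.03% of all genes. Dsp, desmoplakin, which ties keratin to the desmosome, was 5.18, 6.45 and 5.41 in WT and 4.98, 4.89 and 5.10 in KO, so it too was highest in WT replicate 2, and every KO array was below the WT arrays.

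Of the 15 other intermediate filament genes 0, and of 13 epithelial transcription factors 1, had an unadjusted p under 0.05, where 4.99% of all genes were higher and 2.48% lower, so neither count is a result about its list. Vim, the vimentin of fat and stromal cells, was 12.40 to 12.56 in WT and 12.50 to 12.56 in KO, and Nefh, Nefm and Bfsp2, which had the smallest p of the list, differed by -0.27, 0.16 and -0.21. The 1 transcription factor was Klf4, a zinc finger factor of epidermal differentiation that many other cells express, at 8.22, 7.99 and 8.07 in WT and 8.72, 8.37 and 8.36 in KO (difference 0.39, adjusted p 0.622). Elf3 and Ehf, factors of glandular epithelium, differed by -0.24 and -0.47 and had WT replicate 2 as their highest array.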

How the data were processed

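Each array of the authors' deposited table has a single log2 level for every probe set. RMA, affy and limma appear in the submitters' processing notes without versions, and no source names a genome build. RMA equalizes the distributions of arrays, so a shift of most genes would not show. Depth does not apply to arrays, and 3 arrays per group limit the precision. The labels give the replicates as mice.

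Names came from GEO's annotation of the platform. Of 34760 probe sets, 21640 had 1 symbol, 1321 several and 11799 no listed gene. All 52 keratins had 1 probe set each, and all matched a RefSeq gene by Entrez identifier. Other genes with several probe sets were represented by the one with the highest mean. KO was tested against WT with limma 3.58.1 in R 4.3.3 (lmFit, eBayes, two-sided, no filter) over 19937 genes with Benjamini-Hochberg adjustment and a threshold of 0.05. With 3 arrays against 3, an exact permutation test cannot go below 0.1, so none was run. On simulated data for KO against WT over 19937 genes with 200 changed, the test recovered 78.7% of log2 changes of 1 and 97.6% of changes of 2. The simulated noise was independent between genes and arrays, and no array stood apart. These shares therefore do not give the power for the keratins here, where Krt8 had an SE of 0.70 and Krt19 of 0.95.

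The members and marker lists were chosen with earlier results of these data known. Values on every array are given for 13 keratins chosen by role, the 6 brightest, those with the smallest p under 0.05 in each direction and the ends of the linked cluster. Role groups of keratins were set after the data were seen. A list's level is the mean of its log2 values. The test was repeated with a common median, renewed quantile normalization, a dim gene filter, the mean of probe sets, array weights, a lymphocyte covariate, a replicate block and leaving out arrays.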

Additional observations from a re-analysis of the deposited data

How the results depend on the processing

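Under the 14 alternatives no keratin passed limma's adjusted threshold, and the smallest adjusted p of a keratin was 0.176 (KO replicate 2 left out). The 1 keratin higher at an unadjusted p under 0.05 became 3 with array weights, 2 with the replicate block, 0 with the filter on dim genes and 0 to 2 with arrays left out. The 2 lower became 1 with arrays shifted to a common median, 5 with array weights, 0 with the filter and 0 to 4 with arrays left out. With the mean of probe sets, 1 of all genes was called lower, Atf7, since its probe set 10433032 then enters. The 995 genes higher and 494 lower at an unadjusted p under 0.05 became 631 and 255 with the filter, 2012 and 1777 with array weights, 463 and 328 with the lymphocyte covariate, and 560 to 2068 higher and 192 to 1689 lower with arrays left out. The filter leaves fewer genes to test. For the others the cause was not tested. With arrays left out, the median ranged from -0.12 to -0.013 over linked keratins and from -0.097 to -0.0037 over unlinked ones, and their difference from -0.052 to 0.044. With the filter, 1 unlinked keratin was left (0.11) and 0 linked ones, so no linked median could be given.

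Of 222 values of the 17 named keratins under alternatives, 8 changed sign. With arrays left out Krt18 ranged from -1.15 to 0.095 (0.081 without WT replicate 2), Krt19 from -1.62 to 0.24, Krt10 from -0.17 to 0.056, Krt87 from -0.019 to 0.14 and Krt2 from -0.16 to 0.053. The lymphocyte covariate put Krt2 at 0.0086, and leaving out KO replicate 1 at 0.0020. Atf7 probe set 10433032 differed by -2.72 to -2.56 with arrays left out. With the replicate block its difference was -2.66 (adjusted p 0.0792). Same-numbered arrays correlated at -0.143, -0.079 and -0.045 in their deviations from the group means across genes. This gave no sign that the numbers pair the mice. It cannot exclude a shared litter or batch, since the deviations of 3 arrays sum to zero and single arrays stand apart. The block gave 917 genes higher and 466 lower at an unadjusted p under 0.05. Dim probe sets limit what can be seen for 51 of the 52 keratins.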

Other observations

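Genes outside the keratins that shared the pattern of Krt8 and Krt18 were listed by a rule chosen after the values were seen: at least 1 log2 unit higher in WT replicate 2 than the mean of the other 5 arrays, which themselves spanned less than 0.5. It took 33 genes, among them 4 keratins (Krt8, Krt18, Krt5 and Krt7), 9 luminal gland markers, Csn3 and Sprr1a of the epidermis list. The limit on the other arrays keeps out most muscle markers beforehand, whose median span without WT replicate 2 was 3.18, so their absence says nothing. Krt19 was outside it, since its other 5 arrays spanned 0.83. Another 18 genes were keratins in no case and in no marker list, and only some are named here. Cyp3a57 had the largest excess of them, at 2.33 above the mean of the other arrays. Fgb, Fgg and Nabp1 were at 1.43, 1.27 and 1.08. Pgr, the progesterone receptor, was at 1.67, and Tfap2b, a transcription factor of the AP-2 family, at 1.35. Serpinb5, the serpin known as maspin, was at 1.71. Tmprss2 and Prss8, serine proteases of epithelial surfaces, were at 1.96 and 1.06. The same rule applied to each other array took 0 and 1 genes in the remaining WT arrays and 2, 3 and 7 in KO replicates 1 to 3, and no keratin in any of them. Because the rule was chosen on the pattern of Krt8 and Krt18 in WT replicate 2, these counts lend that pattern no independent weight.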
